A study of Mus musculus with 6 samples.

Results

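The 6 actin isoform genes of the mouse, Actb, Actg1, Acta2, Actg2, Acta1 and Actc1, were followed in NIH-3T3 cells and in a mutated derivative of that line. They were taken by symbol from a table of 55401 genes, and they had been picked with the comparison of the mutated and unmutated cells in view. Their differences between the groups are therefore given as a description, with no test. NIH-3T3 is a mouse embryonic fibroblast line, grown in all groups in DMEM with 10% fetal bovine serum. There were 3 mRNA libraries of the unmutated cells (genotype label WT) and 3 of the derivative (genotype label Mutation, here MU). The treatment label was Cultural for all 6. The labels give neither the mutated gene nor the number of clones behind MU, so any effect of the mutation and of line history cannot be told apart. By its title, the series deals with errors of mitochondrial protein synthesis and with oxidative stress.

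Actin monomers polymerise into the filaments that shape cells, drive migration and, with myosin, produce contraction. Actb and Actg1 encode the cytoplasmic beta and gamma actins found in nearly all cells. Acta2 and Actg2 encode the alpha and gamma actins of smooth muscle, Acta1 the alpha actin of skeletal muscle and Actc1 that of cardiac muscle. In fibroblasts, Acta2 is the usual marker of the contractile myofibroblast state. Transcription of actin genes is controlled in large part by serum response factor (SRF), which binds the CArG box together with the myocardin-related cofactors MRTF-A and MRTF-B. These cofactors bind actin monomers and are released when monomers are used up.

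The deposited values are log2(TPM + 1), where TPM is transcripts per 1000000 transcripts, a level corrected for transcript length and scaled to the same total in every library. Depth is unknown, and a gene at 0 is only listed at 0. Of the 6 actin genes, 5 reached 1 TPM in at least 3 libraries and entered the comparison across all genes, and Actc1 did not. Acta1 reached 1 TPM in the MU libraries only, so its entry depended on the group in which it was higher. Actg2 reached 1 TPM in every MU library but not in WT replicate 3 (0.457 TPM), so its entry also needed the MU libraries. For genes that are not actins, differences were tested with limma over 14209 genes, and a gene is said to rise or fall at a Benjamini-Hochberg adjusted p under 0.05. By that rule 2667 genes passed (18.8%), 1012 higher in MU (7.12%) and 1655 lower (11.6%). Leaving the mtDNA-encoded genes out of the scaling gave 1159 higher and 1229 lower, and the split was 1221 and 1422 with median-of-ratios scaling and 1262 and 1322 with quantile normalization. Omitting WT replicate 1 left 1430 passing genes, and omitting MU replicate 1, 2 or 3 left 1158, 1071 or 1203. Separate cultures are not stated for the replicates, and the p-values therefore cover the variation among these libraries alone, which may be technical.

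The fibroblast label was checked against 17 markers, of which 14 were tested. Vim, as mean ± SD of 3 libraries, stood at 3981 ± 628 (WT) and 4133 ± 59.5 TPM (MU), and Pdgfra at 60.5 ± 4.17 and 63.4 ± 2.01. Fbln1 was listed at 0 in all libraries, and Lum and Fap stayed at or below 1.68 TPM. Of the 14, 7 rose and 0 fell, where 7.12% of all tested genes rose and 11.6% fell. Among the risers, Col1a2 went from 859 ± 50.7 to 2180 ± 69.6 TPM (log2 difference 1.34, SE 0.10, limma adjusted p = 0.00062). Col5a1 went from 58.9 ± 3.49 to 96.7 ± 2.47 TPM (limma adjusted p = 0.00281). The number rising was 4 without MU replicate 1 or MU replicate 2. Of 22 epithelial, endothelial and leukocyte markers, 3 were tested. Csf1r, a receptor of macrophages, was higher in MU, at 5.34 ± 0.848 TPM against 1.87 ± 0.109 (limma adjusted p = 0.00528). Cdh5, an endothelial cadherin, fell from 1.82 ± 0.861 to 0.105 ± 0.0118 TPM (limma adjusted p = 0.0186). It entered the test through the WT libraries only, and its call ended without any 1 MU library (0.0626 to 0.0653). The summed level of the 22 markers was 4.95 to 7.87 TPM in WT and 8.80 to 10.8 TPM in MU, and Cldn4 and Adgre1 were at 0 throughout.

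The cytoplasmic actins made up most of the actin mRNA in every library. Actg1 (ENSMUSG00000062825.15, chromosome 11, 120345690 to 120348542, minus strand, mm10) was at 3326, 2683 and 4299 TPM in the WT libraries and at 4299, 4269 and 4067 TPM in the MU libraries. The groups overlapped, and the WT libraries spread much more widely, with a coefficient of variation of 23.7% against 2.997% in MU. Its mean difference, MU minus WT, was 0.32 on the log2(TPM + 1) scale (SE 0.20), 0.155 without WT replicate 2, the lowest library, and 0.495 without WT replicate 3, the highest. Actb (ENSMUSG00000029580.14, chromosome 5, 142903115 to 142906754, minus strand) was at 2033, 2179 and 1858 TPM in WT and at 1845, 1897 and 1897 TPM in MU. These groups overlapped as well, with a log2 difference of −0.10 (SE 0.07) that was −0.05 without WT replicate 2 and −0.16 without WT replicate 3. Quantile normalization gave −0.156 for Actb, median-of-ratios scaling −0.0499, and scaling that left out the mtDNA-encoded genes −0.0383. Values of these genes carry the 4 digits of the deposited table, a rounding of up to 0.347% of the level in either direction.

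The ratio of Actg1 to Actb varied among the WT libraries, at 1.64, 1.23 and 2.31, and was 2.33, 2.25 and 2.14 in MU. WT replicate 2, with the lowest ratio, was also the library whose deviations from the gene means rose most with the GC content of the transcript (Spearman correlation 0.329 across genes, which are not independent). WT replicate 3, with the highest WT ratio, stood at the other end (−0.248), and the remaining libraries lay between −0.124 and 0.165. The transcripts of Actg1 and Actb have GC contents of 52.6% and 51.1%. After a correction for GC content and length, the log2 difference between MU and WT was 0.32 for Actg1 and −0.10 for Actb, as without it. The ratio in single libraries was not recomputed after that correction, so the part of GC content in its spread was not tested.

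The smooth-muscle alpha actin gene was several times higher in every MU library. Acta2 (ENSMUSG00000035783.9, chromosome 19, 34241090 to 34255590, minus strand) was at 152, 160.0 and 116 TPM in WT and at 939, 970.5 and 1020.2 TPM in MU. The lowest MU library was far above the highest WT library. The means of 143 ± 23.7 and 977 ± 40.8 TPM (SD, n = 3) differ 6.85-fold, or by 2.78 on the log2 scale (SE 0.15). Among all 55401 genes Acta2 ranked between 820 and 1192 in the WT libraries and between 143 and 153 in the MU libraries.

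Actg2, the gamma actin of visceral smooth muscle, went from a trace level to a clearly measured one. Actg2 (ENSMUSG00000059430.14, chromosome 6, 83512905 to 83536265, minus strand) was at 1.09, 1.32 and 0.457 TPM in WT and at 74.5, 84.4 and 88.3 TPM in MU. Its groups were the most widely separated of the 6 genes. The ratio of the means was 86.3, and the log2 difference of 5.44 (SE 0.22) was 6.39 with a pseudocount of 0.1 and 3.88 with a pseudocount of 5. Its rank moved from between 13267 and 16116 in WT to between 1447 and 1771 in MU. The ratio of Acta2 to Actg2 was 122 to 253 in WT and 11.5 to 12.6 in MU, so the gap between the smooth-muscle isoforms was narrower in the MU libraries.

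The striated-muscle actins stayed low. Acta1 (ENSMUSG00000031972.5, chromosome 8, 123891769 to 123894751, minus strand) was at 0.592, 0.667 and 0.715 TPM in WT and at 2.65, 3.28 and 3.08 TPM in MU. The groups did not overlap, with a ratio of means of 4.57 at levels below those of the other detected isoforms in MU. Its log2 difference of 1.27 (SE 0.08) was 2.03 with a pseudocount of 0.1 and 0.50 with a pseudocount of 5. Acta1 lies within the span of Galnt2l on the opposite strand, whose own level was 8.43, 0.0176 and 38.5 TPM in WT and 14.6, 11.7 and 9.67 TPM in MU. Whether counting used the strand is not stated in the labels or notes, so reads of the overlapping genes may not be separated. Actc1 (ENSMUSG00000068614.7, chromosome 2, 114047282 to 114053548, minus strand) was listed at 0 in all 6 libraries.

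**Figure D1:**
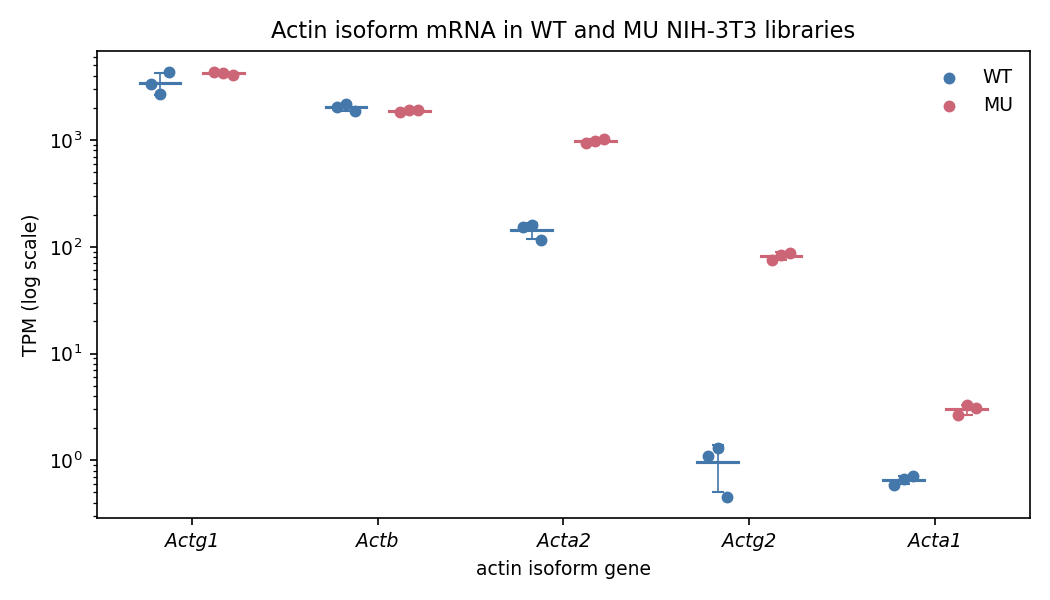
TPM of the 5 detected actin genes on a log axis, with WT libraries in blue and MU libraries in red. Points are libraries, horizontal lines are means and vertical bars are SD (n = 3). WT and MU points overlap for Actg1 and Actb, and they are apart for Acta2 (116 to 160.0 against 939 to 1020.2 TPM), Actg2 and Acta1.

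In all, 3 of the 5 tested actin genes had groups that did not overlap, where this held for 39.2% of all tested genes and, in the direction higher in MU, for 16.1%. The genes were chosen on this contrast, so nothing is read from that count. The order of levels in WT was Actg1, Actb, Acta2, and then Actg2 and Acta1, whose WT values overlapped, with Actc1 at 0. In MU the order was Actg1, Actb, Acta2, Actg2, Acta1, Actc1, and no neighbours overlapped. The authors' deposited table gives log2 fold changes of 5.53 for Actg2, 2.72 for Acta2, 1.63 for Acta1, 0.34 for Actg1 and −0.05 for Actb. For Actc1 the authors' deposited table lists no fold change.

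The total of actin mRNA was higher in MU and its composition differed. The 6 genes summed to 5513, 5024 and 6273 TPM in WT and to 7160, 7224 and 7075 TPM in MU, or 0.56% ± 0.0630 and 0.715% ± 0.00738 of all TPM. The MU sums lay above every WT sum. Summed Actb and Actg1 overlapped between groups, at 4862 to 6156 TPM in WT and 5963 to 6166 TPM in MU.

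As shares of the actin sum, Acta2 took 2.76%, 3.19% and 1.84% in WT and 13.1%, 13.4% and 14.4% in MU. Actg2 took 0.0178% ± 0.00961 in WT and 1.15% ± 0.105 in MU. The smooth-muscle pair together thus made up 2.61% ± 0.695 of actin mRNA in WT and 14.8% ± 0.775 in MU. The share of Actb was 36.9%, 43.4% and 29.6% in WT and 25.8%, 26.3% and 26.8% in MU, a mean 10.3 percentage points lower although its TPM overlapped between groups. The share of Actg1 was 60.3%, 53.4% and 68.5% in WT and 60.04%, 59.1% and 57.5% in MU. Its mean difference of −1.88 percentage points turned to 2.00 without WT replicate 3 and was −5.56 without WT replicate 2. Acta1 stayed at or below 0.0455% of the sum. Shares are not independent of each other, because they add up to 100% in each library by construction. In bulk libraries a change in the number of cells that express a gene and a change in mRNA per cell cannot be told apart.

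**Figure D2:**
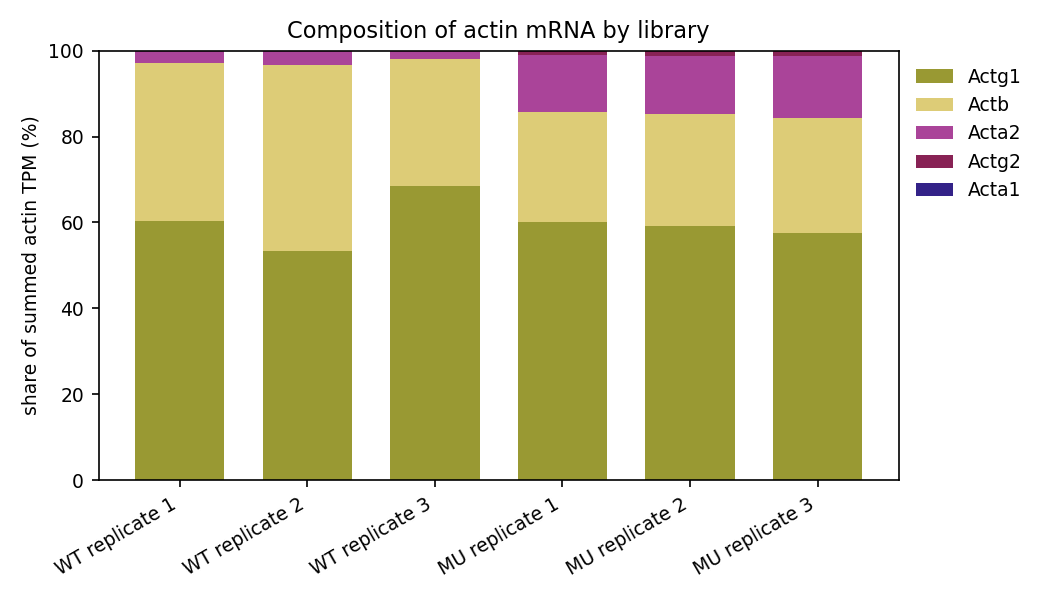
Stacked bars of each isoform's share of the summed actin TPM, in percent, for the 6 libraries. Acta2 fills 1.84% to 3.19% of the WT bars and 13.1% to 14.4% of the MU bars, a thin Actg2 band is visible in the MU bars only, and the boundary between Actg1 and Actb moves among the WT libraries.

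Because actins are close copies of each other, the transcripts were compared for stretches that could not be assigned to a single gene. Between members, the coding sequences were 81.5% to 88.7% identical at the base level, highest between Actb and Actg1. Even so, not a single 100-base window of any member's longest coding transcript in GENCODE M21 occurred in another member's transcripts. With 50-base windows, 0% of Actg2 and Actc1 windows, 0.353% of Acta2, 1.94% of Actg1, 2.00% of Acta1 and 2.57% of Actb windows were shared with another member. Acta2 and Actg2 therefore had almost no exact stretches in common with the abundant cytoplasmic isoforms at these lengths. Neither the read length nor the handling of reads with several matches is stated in the labels or notes.

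Actg1 differed from the others in this respect. Of its 100-base windows 51.1% also occurred in another annotated transcript, all of them processed pseudogenes, and for Actb this share was 1.10%. The pseudogenes that shared 100-base windows with Actg1 were Actg-ps1, Gm12715, Gm16385, Gm6375, Gm8399 and Gm8543, and none of them exceeded 0.576 TPM in any library. For Actb they were Gm15725, at 0 to 4.42 TPM, and the protein-coding gene Lrrc58, at 16.4 to 25.4 TPM. The level of Actg1 is thus uncertain to the extent that reads with several matches were dropped or shared. The other members had 0% of such windows.

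CArG boxes were looked for upstream of the actin genes. RefSeq promoter sequences (GRCm38.p6, the assembly of mm10) were matched for 4 of the 6 members, namely Acta1, Acta2, Actc1 and Actg1. The 250 bases before the RefSeq start were searched for the CArG box, the SRF motif of 10 bases, and for its one-off form with a single G or C among the A and T letters of its centre. Both forms read alike on either strand. The strict form was present in 1.47% of 32851 promoters searched and the one-off form in 7.24%. Boxes are in capitals with 10 bases on each side, 5′ to 3′ on the gene's strand, and are shown so that matches to the SRF motif can be compared between isoforms.
Acta2 upstream box, one-off, chr19:34255438-34255467, minus strand: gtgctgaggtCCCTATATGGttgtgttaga
Acta2 downstream box, one-off, chr19:34255388-34255417, minus strand: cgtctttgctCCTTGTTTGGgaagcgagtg
Acta1 box, strict, chr8:123894829-123894858, minus strand: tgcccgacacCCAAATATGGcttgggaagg
Actc1 box, strict, chr2:114052903-114052932, minus strand: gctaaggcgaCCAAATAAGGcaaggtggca
Actc1 upstream box, one-off, chr2:114053031-114053060, minus strand: ctccctagctCCCTATATGGccattgctct
Actg1 box, strict, chr11:120348566-120348595, minus strand: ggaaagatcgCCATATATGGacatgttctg

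All 4 promoters held at least one strict or one-off box. Acta2 had 2 one-off boxes and 0 strict ones, beginning 84 and 34 bases before the RefSeq start. Both overlap an exon of Acta2 annotated in GENCODE M21. Acta1 had 1 strict and 2 one-off boxes, Actc1 1 and 3, and Actg1 1 and 0, with the strict boxes beginning 73, 47 and 90 bases before the start. The upstream Acta2 box and the most distant Actc1 box were the same 10 letters. Acta2 reached 1020.2 TPM in MU and Actc1 was at 0 in all libraries, and any part of the boxes in these levels was not tested. A box in the sequence is a match of letters and not a measured binding site.

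Among 15 tested regulators of the SRF pathway 1 rose and 0 fell, where 7.12% of all tested genes rose and 11.6% fell, and the median log2 difference was −0.13 against −0.05 for all tested genes. Srf itself had mean levels of 60.9 ± 2.04 (WT) and 73.2 ± 9.32 TPM (MU), with no overlap between groups, and did not pass (log2 difference 0.26, limma adjusted p = 0.156). Mrtfa, which encodes MRTF-A, was at 34.6 ± 4.46 and 41.0 ± 2.11 TPM, also without overlap (limma adjusted p = 0.19). Mrtfb was at 9.97 ± 1.06 and 9.32 ± 1.26 TPM, with overlap (limma adjusted p = 0.696). Groups did not overlap for 39.2% of all tested genes. Myocd, which encodes the muscle cofactor myocardin, was not tested and did not exceed 0.131 TPM in any library, and its groups did not overlap. Phactr1, an actin-binding regulator of protein phosphatase 1, was higher in MU at 7.21 ± 1.16 against 3.64 ± 1.06 TPM (log2 difference 0.84, SE 0.21, limma adjusted p = 0.0365). That call ended without WT replicate 1, WT replicate 3 or any 1 MU library (0.0642 to 0.124). Without WT replicate 2 or WT replicate 3, 1 gene of the list was lower.

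Most of the tested genes of smooth muscle other than the actins were higher in MU. Of 20 listed genes 11 were tested, with a median log2 difference of 0.74. Of these 8 rose and 0 fell, where 7.12% of all tested genes rose and 11.6% fell. The list was written with earlier results of these data known. Hspb6, a small heat shock protein of muscle, rose from 16.03, 12.69 and 13.04 TPM to 47.9, 37.7 and 38.2 TPM (log2 difference 1.502, SE 0.14, limma adjusted p = 0.00142). Myl9, the regulatory light chain of smooth-muscle and non-muscle myosin, rose from 3.60, 4.86 and 3.48 TPM to 14.1, 13.03 and 12.6 TPM (1.53, SE 0.14, limma adjusted p = 0.00149). The others that rose included Cald1, Tagln, Mylk, Ppp1r12b and Csrp1. The number rising was 5 without WT replicate 1 or MU replicate 3 and 4 without MU replicate 2.

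The other 9 genes of this list were not tested, and none of them exceeded 0.997 TPM in any library. Among these, and chosen after their values were seen, Myh11, the smooth-muscle myosin heavy chain, did not exceed 0.105 TPM and Cnn1, calponin 1, did not exceed 0.82 TPM. Des, the intermediate filament protein desmin, ranged from 0 to 0.19 TPM in the WT libraries and from 0.545 to 0.997 TPM in the MU libraries, without overlap. Lmod1, which encodes leiomodin 1, a nucleator of smooth muscle counted here with the formins and also chosen after its values were seen, was not tested and had means of 0.0374 ± 0.0172 (WT) and 1.12 ± 0.211 TPM (MU), without overlap. The summed level of the 20 genes was 743 to 1344 TPM in WT and 1421 to 1513 TPM in MU, without overlap. The sum was higher in MU, as Acta2 and Actg2 were, and any link between them was not tested.

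Most markers of striated muscle were too low to be tested. Of 42 genes 13 were listed at 0 in every library, among them Myod1, Myf5, Myog and Myf6, the transcription factors of the skeletal lineage. Only 8 were tested. Ttn, the giant sarcomere protein titin, was higher in MU at 1.30 ± 0.237 against 0.0857 ± 0.0455 TPM (limma adjusted p = 0.017), having reached 1 TPM in the MU libraries only, and Myl4, an atrial light chain, lower at 0.903 ± 0.696 against 3.06 ± 0.166 TPM (limma adjusted p = 0.0315). Among the MU libraries only MU replicate 2 reached 1 TPM for Myl4, so its entry needed the WT libraries. Ttn did not pass without WT replicate 1 or any 1 MU library (0.0512 to 0.0778), and Myl4 did not pass without any 1 library other than MU replicate 2 (0.0597 to 0.103). With WT replicate 2 left out 2 genes of the list rose.

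**Figure D3:**
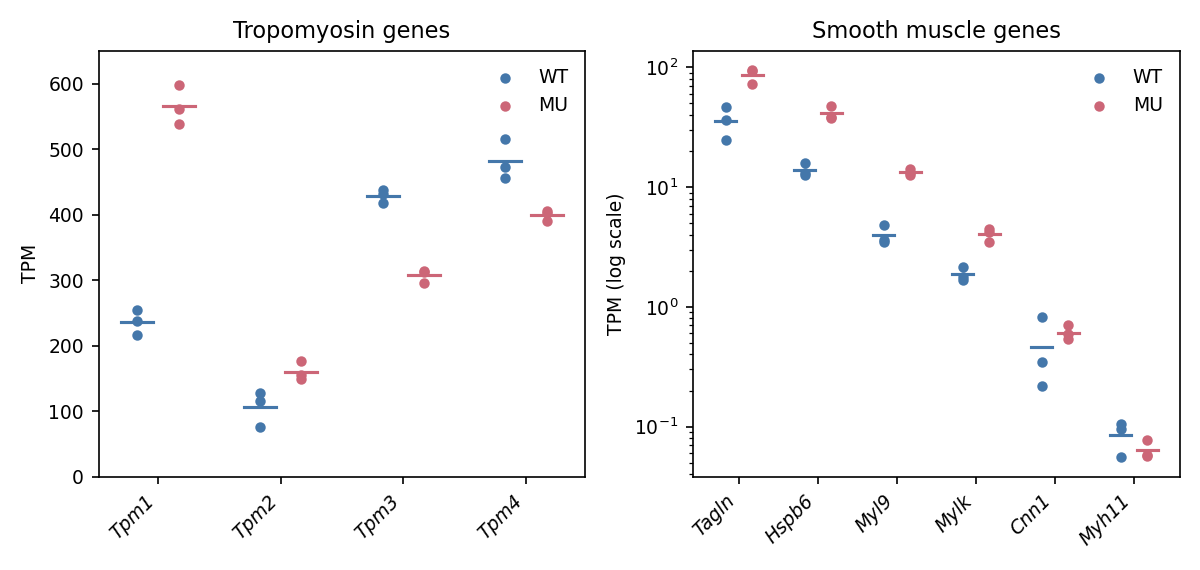
TPM of tropomyosin genes (left, linear axis) and of smooth-muscle genes (right, log axis) in WT (blue) and MU (red). Points are libraries and lines are group means. Tpm1 is higher and Tpm3 lower in every MU library, and Myh11 stays at or below 0.105 TPM in both groups.

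Genes of proteins that bind along or between filaments included several that rose. Of 16 tested crosslinkers and tropomyosins 6 rose and 1 fell, with a median log2 difference of 0.31. Of all tested genes 7.12% rose and 11.6% fell. Tropomyosins wind along actin filaments and set which myosins and severing proteins can bind. Tpm1 rose from 217, 237 and 255 TPM to 539, 560.4 and 597 TPM, by 1.26 on the log2 scale (SE 0.10, limma adjusted p = 0.000712). Tpm3 fell from 438, 432 and 417 TPM to 314, 296 and 312 TPM (−0.48, SE 0.08, limma adjusted p = 0.0087), a call that ended without MU replicate 2 (0.0626). Tpm2 was at 107 ± 27.0 and 161 ± 14.2 TPM and Tpm4 at 482 ± 30.9 and 399 ± 7.72 TPM, and neither passed (limma adjusted p = 0.0744 for each, chosen after their values were seen).

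Vcl, which encodes vinculin, a link between filaments and focal adhesions, rose from 146 ± 4.74 to 231 ± 4.605 TPM (0.66, SE 0.07, limma adjusted p = 0.00264). The remaining risers were Palld, Lcp1, Actn1 and Actn3. Lcp1, L-plastin, is best known from leukocytes and was at 3.50 ± 0.251 TPM in MU and 0.733 ± 0.155 TPM in WT. Lcp1 and Actn3 entered the test through the MU libraries only. Without WT replicate 2, 4 genes of the list fell.

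Genes that control the pool and turnover of actin monomers moved in both directions. Of 25 tested genes 4 rose and 5 fell, where 7.12% of all tested genes rose and 11.6% fell, and the median of the list was −0.16. Dstn, which encodes destrin, a severing protein related to cofilin, rose from 232, 171 and 225 TPM to 404, 413 and 357 TPM (0.91, SE 0.14, limma adjusted p = 0.0073). Gsn, gelsolin, which severs and caps filaments, rose from 218 ± 27.95 to 379 ± 6.99 TPM (limma adjusted p = 0.00539). Tmsb4x, thymosin beta 4, which holds monomers in reserve, fell from 1104, 901 and 1208 TPM to 629.8, 612 and 601 TPM (−0.79, SE 0.13, limma adjusted p = 0.00866). Pfn2, a profilin that feeds monomers to growing ends, fell from 174 ± 17.1 to 100.4 ± 5.65 TPM (limma adjusted p = 0.00413). The counts were 2 and 2 without any 1 MU library, and 2 fell without WT replicate 1.

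Nucleators, actin-related proteins and folding factors had calls in both directions, with 18.8% of all tested genes passing as the background. Of 20 tested Arp2/3 complex genes and activators, Arpc1b fell from 447 ± 52.6 to 308 ± 20.5 TPM (limma adjusted p = 0.0219). Cyfip2, of the complex that activates branching, was higher in MU at 1.16 ± 0.0791 against 0.173 ± 0.0660 TPM (limma adjusted p = 0.0283), and it entered the test through the MU libraries only. Both calls ended without WT replicate 1 or any 1 MU library (0.0569 to 0.106), and that of Cyfip2 also without WT replicate 3 (0.0584). Arpc1b also did not pass with quantile normalization (limma adjusted p = 0.0552). The list had 2 higher genes without WT replicate 2, and 3 lower ones without WT replicate 2 or WT replicate 3.

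Of 14 tested formins and other nucleators, Daam2 rose from 1.42 ± 0.117 to 4.72 ± 0.806 TPM (limma adjusted p = 0.00505). Fhod3, a formin of muscle sarcomeres, fell from 7.19 ± 1.61 to 1.89 ± 0.842 TPM (limma adjusted p = 0.0106), and Spire2 from 12.6 ± 3.44 to 6.31 ± 0.698 TPM (limma adjusted p = 0.0248). The call of Spire2 ended without WT replicate 1 or any 1 MU library (0.0597 to 0.0926). Of 7 tested actin-related proteins, Actl6a, a chromatin remodelling subunit, fell from 99.7 ± 13.2 to 73.6 ± 2.81 TPM (limma adjusted p = 0.0452). It did not pass without any 1 library other than WT replicate 2 (0.0805 to 0.147). Actl6a also did not pass with quantile normalization (limma adjusted p = 0.0996), rescaling without mtDNA-encoded genes (0.104) or limma without the intensity trend (0.0709).

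Of 21 tested folding and modifying genes, 3 rose and 1 fell, beside 7.12% and 11.6% of all tested genes. Mical2, an enzyme that oxidises actin and takes filaments apart, rose from 29.98 ± 2.20 to 48.7 ± 1.54 TPM (limma adjusted p = 0.00428). Mical1 was at 1.02 ± 0.462 and 3.10 ± 0.931 TPM (limma adjusted p = 0.0349), a call that ended without any 1 library other than WT replicate 2 (0.064 to 0.12). Among the WT libraries only WT replicate 2 reached 1 TPM for Mical1, so its entry needed the MU libraries. Msrb2, a methionine sulfoxide reductase, had WT levels of 4.30, 2.96 and 4.70 TPM and was listed at 0 in every MU library (limma adjusted p = 0.00142), so that it entered the test through the WT libraries only. The 8 subunit genes of the chaperonin that folds actin were all among those that did not pass. In this list 1 gene rose without WT replicate 1 or any 1 MU library, and omitting WT replicate 2 or 3 gave 4 or 2 lower genes.

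Over all 11 lists, 154 genes other than the actins were tested, and 33 rose (21.4%) and 13 fell (8.44%), beside 7.12% and 11.6% of all tested genes. Their median log2 difference was −0.04. Omitting WT replicate 1 gave 21 and 6, and omitting MU replicate 1, 2 or 3 gave 19 and 5, 17 and 5, or 19 and 5. Without WT replicate 2 the genes lower in MU numbered 21.

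**Figure D4:**
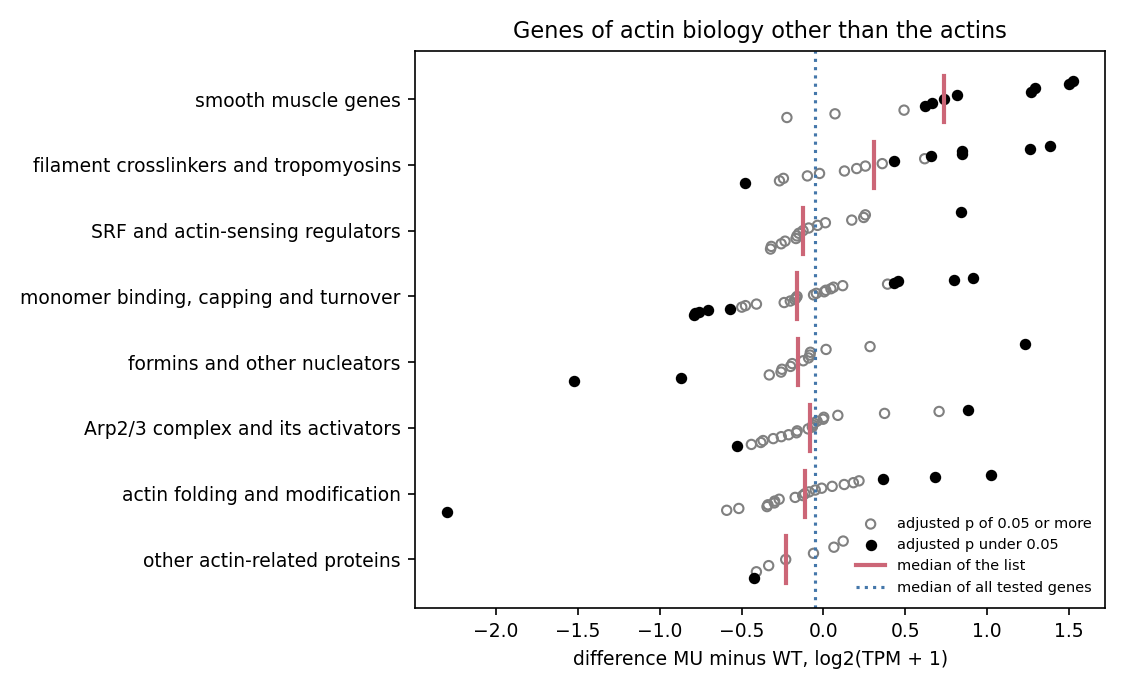
Differences between MU and WT on the log2(TPM + 1) scale for tested genes of 8 lists, 1 point per gene. Filled points passed at an adjusted p under 0.05 (limma), red bars are list medians and the dotted line is the median of all tested genes (−0.05). Smooth-muscle genes have a median of 0.74 and crosslinkers and tropomyosins 0.31, and the other 6 medians are below 0.

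The genes around the actins were then examined. For each, 20 tested protein-coding neighbours were taken, in equal number from each side whatever their distance. Their median log2 difference was −0.0005 around Acta2, −0.11 around Actg2, −0.12 around Actg1 and −0.11 around Actb. Around Acta1 it was −0.65, while Acta1 itself was higher. Of these 20 neighbours of Acta1, 13 were lower in MU and 0 higher, beside 11.6% and 7.12% of all tested genes. The other 597 tested protein-coding genes of chromosome 8 had a median of −0.32. The same median was −0.24 for chromosome 5 (Actb), −0.08 for chromosome 19 (Acta2), −0.07 for chromosome 6 (Actg2) and −0.04 for chromosome 11 (Actg1). Lower and higher neighbours numbered 5 and 0 for Actb and for Acta2, 4 and 3 for Actg2, and 3 and 1 for Actg1. Beside Acta2, Fas was at 2.98 ± 0.783 and 5.04 ± 0.417 TPM (limma adjusted p = 0.0639). Beside Actg2, Stambp rose from 11.045 ± 0.638 to 16.9 ± 0.812 TPM (limma adjusted p = 0.0108), and Dguok was at 11.8 ± 4.17 and 19.2 ± 3.10 TPM (limma adjusted p = 0.114). Beside Acta1, Ccsap fell from 14.3 ± 1.75 to 7.91 ± 1.17 TPM (limma adjusted p = 0.0143), and Nup133 was at 29.0 ± 2.70 and 22.5 ± 2.54 TPM (limma adjusted p = 0.0886).

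For each detected actin gene, the protein-coding genes with the most similar profile were found by the root mean square distance of log2(TPM + 1), centred on the WT mean, over the 6 libraries. Closest to Acta2 were 3830403N18Rik (distance 0.0984), Mfap5 (0.149) and Gstm2 (0.191). Closest to Actg2 were Vip (0.720), Cbr2 (0.998) and Pnma5 (1.22), all at larger distances. Closest to Acta1 were Mrgprb5 (0.0657), Tpm1 (0.0674) and Ldb3 (0.0815). Actg1 was nearest to Raph1 (0.0308), Aldh3a2 (0.0493) and Qrsl1 (0.0501), and Actb to Traf2 (0.00747), Dag1 (0.0187) and Zfp446 (0.0291). Among the actins themselves, the closest profiles were those of Actb and Actg1 (0.400) and the most distant those of Actb and Actg2 (3.92). These distances rest on 6 libraries that share a single group difference. 3830403N18Rik, Vip, Pnma5, Mrgprb5 and Ldb3 stayed below 1 TPM in every WT library, so they entered through the MU libraries only.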

How the data were processed

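Per the labels' protocols, RNA of the 6 libraries was turned into stranded mRNA libraries. Per the submitters' processing notes, mm10 is the named build. Named there, without roles, are DESeq2 1.20.0, featureCounts 1.5.0-p3, HISAT2 2.05.0 and FastQC 0.11.4. The authors deposited log2(TPM + 1) values per library, kept to 4 digits, and a second table with the authors' mean TPM per group, log2 fold changes, p-values and adjusted p-values, of which only fold changes are quoted. Depth is unknown, so no counting interval was computed. Values were returned to TPM. A gene that reached 1 TPM in 3 or more libraries was tested as log2(TPM + 1) in limma 3.58.1 (R 4.3.3, intensity trend, two-sided, no covariate), with a pseudocount of 1, after a test on simulated data. A fold change on this scale understates the change of low genes. Annotation was GENCODE M21 (GRCm38), matched by identifier for 54349 of 55401 genes.

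The actin genes and the 11 lists were chosen with earlier results of these data known. Of 243 listed symbols, 242 matched. Genes are named by a fixed rule: the actins, Srf, Mrtfa, Mrtfb and Myocd, in each list the 2 higher and 2 lower passing genes with the smallest adjusted p, the 3 nearest profiles, the nearest tested neighbours, and expressed actin pseudogenes. Some genes that the rule names are not reported here. Any other gene given with values was chosen after they were seen. Alternatives were no filter, a minimum of 5 TPM, pseudocounts of 0.1 and 5, 3 other scalings, other limma options, a replicate block, and leaving out each library. A loess correction (span 0.3) for transcript GC content and length was added after seeing the data.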

Additional observations from a re-analysis of the deposited data

How the results depend on the processing

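The 5 actin differences kept their direction under every scaling, pseudocount, correction and omission tried. With any 1 library left out they ranged from 5.24 to 5.57 for Actg2, 2.64 to 2.87 for Acta2, 1.22 to 1.34 for Acta1, 0.155 to 0.495 for Actg1 and −0.163 to −0.0483 for Actb (log2). The low genes depended on the pseudocount by construction, with Actg2 at 6.39 and 3.88 and Acta1 at 2.03 and 0.50 for pseudocounts of 0.1 and 5. Acta1 was at 1.38 after rescaling without mtDNA-encoded genes, which held 8.60% to 12.45% of TPM in WT and 13.9% to 15.3% in MU. Leaving them out raised the MU values more than the WT values by construction. The cause of the different mtDNA shares was not tested. The differences in share of actin TPM ranged from 10.7 to 11.4 points for Acta2, 1.09 to 1.19 for Actg2, 0.0285 to 0.0327 for Acta1, −13.85 to −6.97 for Actb and −5.56 to 2.00 for Actg1, which reversed without WT replicate 3. As a percent of the whole library TPM, a smaller unit by construction, the differences were 0.0834 for Acta2, 0.00814 for Actg2, 0.000235 for Acta1, −0.0144 for Actb and 0.0775 for Actg1, the last of opposite sign to its share. The number of genes passing with 1 library left out was 1071 to 3391, with 427 to 1153 higher and 644 to 2238 lower. For the listed genes it was 17 to 35 higher and 5 to 21 lower. Without the filter 7 listed genes were lower, and with the GC and length correction, chosen after seeing the data, 21 were. The cause was not tested. Without the filter the calls of Actl6a, Arpc1b, Spire2, Mical1, Phactr1 and Myl4 ended (limma adjusted p 0.0528 to 0.11).

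Same-numbered WT and MU libraries had correlations of their deviations from the group means of 0.0495, 0.0154 and −0.0744. Whether the numbers mark a pairing is not stated in the labels. These values cannot decide it, because deviations from the mean of a small group are not independent of each other. WT replicate 2 correlated best with MU replicate 3 (0.12). With the replicate number as a block, 1093 genes passed (456 higher, 637 lower), and 19 listed genes were higher and 5 lower. The calls of Actl6a, Arpc1b, Cyfip2, Spire2, Phactr1, Tpm3, Ttn, Myl4 and Cdh5 ended with the block (limma adjusted p 0.058 to 0.115). Depth is unknown, so the precision of the low genes Acta1 and Actg2 in WT cannot be given beyond the spread of 3 libraries, and no count test was run because the values are TPM.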
